A study of Arabidopsis thaliana with 6 samples.

Results

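The Arabidopsis thaliana seed coat was set against embryos of 2 to 4 cells whose mother was labelled kyp-2, using 3 libraries of the 6 in the series. The seed coat group is 1 library (number 2) of tissue dissected from Landsberg erecta (Ler) seeds, both parents wild type, whose embryos had reached the same stage. The kyp group is 2 libraries (numbers 11 and 12) of dissected embryos with part of the suspensor, from Ler mothers with the kyp-2 allele and Columbia (Col-0) fathers. These 3 libraries were taken by their labels, and no library of wild-type (WT) embryos enters either side of the contrast. The other 3 libraries, 2 of WT embryos at that stage (numbers 7 and 11) and 1 of WT globular embryos, all from Ler mothers and Col-0 fathers, served for scaling and spread. Tissue, cross and maternal genotype all differ between the groups and cannot be told apart. Plants had 16 h of light, and each library was made from amplified total RNA and read on the SOLiD platform.

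The seed coat grows from the integuments of the ovule and is wholly maternal. It makes the flavonoid polymers that colour the seed, and sugars and amino acids reach the embryo through it. The embryo at this stage is setting up its apical and basal domains, for which transcription factors of the WOX, PLETHORA and LEC families are known. KRYPTONITE (KYP), also named SUVH4, methylates histone H3 at lysine 9, and kyp-2 is a mutant allele of its gene.

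Reads assigned to genes numbered 1935906 in the seed coat library, and 1448502 and 4107227 in kyp libraries 11 and 12. A read was seen at 20677 loci in the seed coat library, and at 19145 and 19731 loci in the kyp libraries. Ribosomal RNA took 0.92% of the seed coat reads, and 1.80% and 1.31% of the kyp reads. A count of 0 allows up to 3 reads, which is 1.34 CPM in the seed coat library and 1.98 and 0.729 CPM in kyp libraries 11 and 12. CPM are counts per 1000000 reads, with library sizes scaled by TMM, a trimmed mean of ratios between libraries. Amplified copies carry no molecular tags, so floors and intervals cover the counting error of reads only. No label says that the 2 kyp libraries came from separate plants, so p-values rest on a spread between samples that may be technical.

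KYP itself was read in all 3 libraries, with 77 reads in the seed coat, against 67 and 167 reads in kyp libraries 11 and 12. These are 34.5 CPM in seed coat, against 44.3 and 40.6 CPM in kyp. The seed coat value lies below both kyp values, and its difference of −0.30 on the log2 scale (SE 0.57) was not called (edgeR adjusted p = 1). The locus overlaps an antisense gene (AT5G13970), and the counts do not tell strands or parental copies apart, so the level is no check of the genotype. The labels of kyp library 11 also hold a second entry for the maternal genotype, which reads wild type, and kyp library 12 has the prefix MC in its name. Levels are therefore given for each kyp library.

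Markers of the labelled tissues gave an uneven picture. All 12 seed coat markers had reads in all 3 libraries. BAN, an enzyme of proanthocyanidin synthesis in the inner integument, was at 326 CPM in seed coat, against 161 and 222.5 CPM in kyp. TT2, a MYB regulator of that pathway, was at 93.7 CPM in seed coat, against 110.4 and 95.2 CPM in kyp. INO, which marks the outer integument, was at 24.2 CPM in seed coat, against 17.2 and 31.8 CPM in kyp. BAN was highest in the seed coat library, whereas TT2 was lowest there and INO lay between the kyp libraries. STK (uncertain, with an antisense gene), a MADS factor of ovule identity, was at 439 CPM in seed coat, against 445 and 488 CPM in kyp. The 12 markers summed to 1915 CPM in the seed coat library, against 3140 and 2852 CPM in kyp libraries 11 and 12. CYP78A5 gave much of the kyp sums: the other 11 summed to 1857 CPM in seed coat, against 1631 and 1764 CPM in kyp. None of the 12 was called higher in seed coat and 1, CYP78A5, was called lower.

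Of 11 embryo markers, 5 were without reads in the seed coat library, and 1 was without reads in each kyp library. That 1 was RKD4, at 0 in all 3. The summed embryo markers were at 755 CPM in seed coat, against 775 and 1213 CPM in kyp, sums to which ATML1 and PDF1 gave most in each library. ATML1, a homeodomain factor of the epidermis, was at 327 CPM in seed coat, against 369 and 412 CPM in kyp. PDF1, another epidermal gene, was at 423 CPM in seed coat, against 212 and 671 CPM in kyp. Embryo markers outside the epidermis were at or near 0 in the seed coat, whereas seed coat markers were well read in both kyp libraries. How far seed coat RNA in the kyp libraries bears on the results was not tested. In bulk RNA, fewer cells of a type and less RNA per cell cannot be told apart. Endosperm markers (12) summed to 141 CPM in seed coat, against 186 and 97.9 CPM in kyp, with IKU2 at 0 in all 3. Vascular markers (6) summed to 299 CPM in seed coat, against 243 and 394 CPM in kyp, and pollen markers (5) to 33.2 CPM, against 32.4 and 24.5 CPM.

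**Figure D1:**
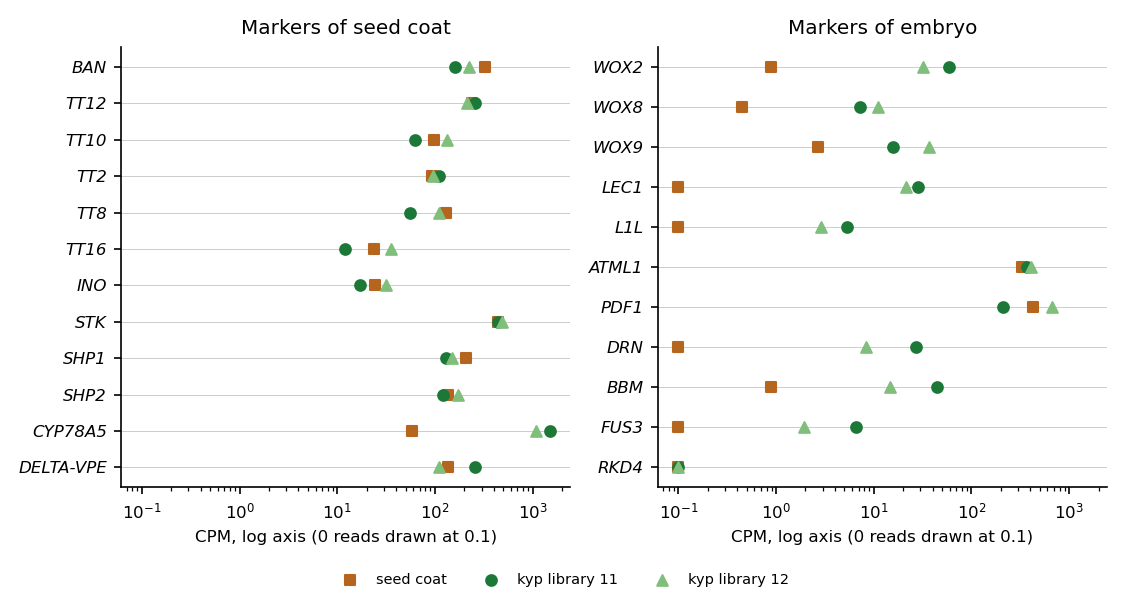
Levels of 12 seed coat markers and 11 embryo markers in CPM on a log axis, with genes without reads drawn at 0.1. The seed coat library (squares) lies between or close to the kyp libraries (circles and triangles) for the seed coat markers, CYP78A5 excepted, and at or near 0 for LEC1, DRN, FUS3, WOX2 and BBM.

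Few genes passed the test between seed coat and kyp embryos, and most that did were lower in seed coat. Of 17706 genes tested with edgeR's quasi-likelihood test, 8 (0.0452%) were higher in the seed coat library and 102 (0.576%) lower, 110 (0.621%) in all, at a Benjamini-Hochberg adjusted p of 0.05. Before adjustment, 248 genes (1.40%) were higher and 788 (4.45%) lower at p under 0.05. By level alone, the seed coat value lay above both kyp values in 34.0% of tested genes and below both in 32.3%, and the median log2 fold change of all tested genes was −0.03. Of the 102 lower genes, 26 were without seed coat reads, 34 had 1 to 5 and 8 had over 100. Among 10486 tested genes with at least 20 reads in each kyp library, 46 had none in the seed coat. Among 12510 with at least 20 reads in the seed coat library, 8 had none in both kyp libraries.

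The seed coat has 1 library, so its spread was assumed to be like that of the kyp pair and of a WT pair that entered no mean of the contrast. Counts moved with the libraries kept. When kyp library 11 was left out, 56 genes were higher and 168 lower, and when kyp library 12 was left out, 12 were higher and 144 lower. Leaving out WT library 7 gave 23 higher and 198 lower, and leaving out WT library 11 gave 22 higher and 170 lower. With isoforms summed instead of taking 1 per locus, 6 were higher and 50 lower. Of the 110 genes, 54 passed in each of 14 alternatives that tested them, and 16 are uncertain because of an antisense gene, an overlapping gene or shared sequence.

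**Figure D2:**
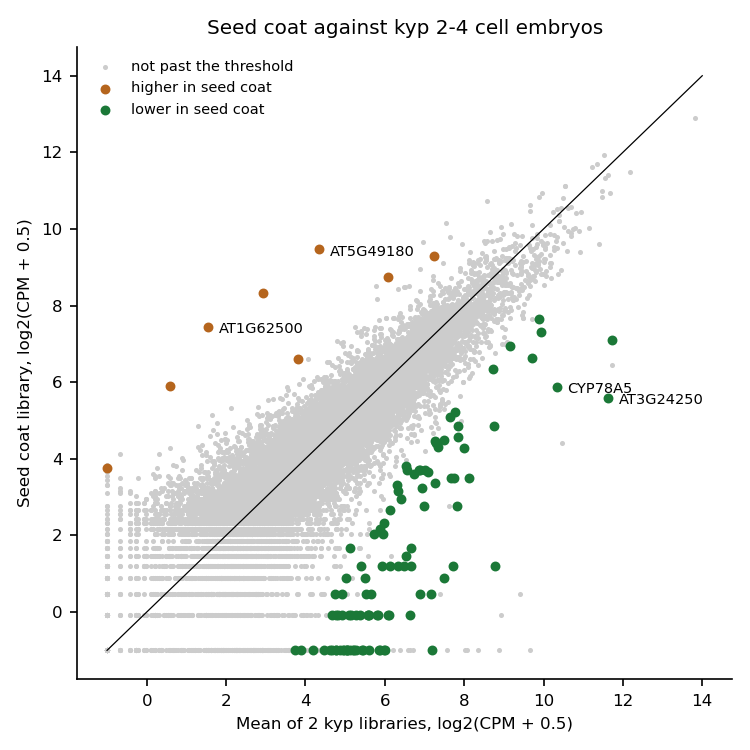
Each tested gene by its level in the seed coat library (vertical axis) and the mean of both kyp libraries (horizontal axis), as log2 of CPM plus 0.5, with the line of equal level. The 102 lower genes lie far under the line, many at the bottom edge where the seed coat had no reads, and the 8 higher genes lie above it.

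The 8 genes higher in seed coat come from different protein families. AT5G49180, annotated to the plant invertase/pectin methylesterase inhibitor superfamily, was at 706 CPM in seed coat, against 17.2 and 22.6 CPM in kyp. The pectin methylesterase VGD1 has the same product name, so the name does not tell enzyme from inhibitor. Its log2 fold change was 5.13 (SE 0.45; adjusted p = 2.78e-05, edgeR). AT1G62500, of the lipid-transfer protein family, had 386 reads in seed coat, against 4 and 9 reads in kyp, or 173 CPM against a mean of 2.42 ± 0.324 CPM (SD, n = 2). Its log2 fold change was 6.17 (SE 0.61; adjusted p = 6.81e-05, edgeR). For both genes the gap to the nearer kyp library was many times the gap between the kyp libraries.

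AT5G20750, an uncharacterized locus annotated as a pseudogene, had 720 reads in seed coat, against 21 and 1 in kyp libraries 11 and 12. Its kyp libraries differ from each other far more than those of the genes above, and its log2 fold change was 5.81 (SE 0.93; adjusted p = 0.00575, edgeR). AT3G48230, with a DUF239 domain, had 133 reads in seed coat, against 3 and 0 in kyp. The ratio of its seed coat to kyp reads, scaled for library size, was 112 (95% Clopper-Pearson interval 37.4 to 549; edgeR adjusted p = 0.0140).

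AT3G49270, an extensin-like protein, was at 428 CPM in seed coat, against 48.9 and 86.5 CPM in kyp, with a log2 fold change of 2.65 (SE 0.46; adjusted p = 0.0124, edgeR). XTH9, a xyloglucan endotransglucosylase/hydrolase that remodels the cell wall, was at 627 CPM in seed coat, against 146 and 158 CPM in kyp. Its log2 fold change was 2.04 (SE 0.43; adjusted p = 0.0379, edgeR). PIP1A, a plasma membrane aquaporin, was at 97.2 CPM in seed coat, against 11.9 and 15.3 CPM in kyp, with a log2 fold change of 2.82 (SE 0.59; adjusted p = 0.0356, edgeR). In each of these 3 the seed coat lay well above both kyp libraries, which lay close together for XTH9 and PIP1A and further apart for AT3G49270. Without kyp library 11 the edgeR adjusted p was 0.0545 for XTH9 and 0.0713 for PIP1A, the highest of 14 alternatives for both, whose lowest were 0.000208 and 0.00204.

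4CL8, of the 4-coumarate-CoA ligase family, is the remaining higher gene and was chosen after its values were seen, since it has fewer than 20 mean reads. It had 29 reads in seed coat, against 0 in both kyp libraries, and was at least 9.58-fold higher with 3 reads per kyp library as the floor (edgeR adjusted p = 0.0486). Leaving out kyp library 12 took its edgeR adjusted p to 0.155, leaving out WT library 7 to 0.0861 and leaving out the globular library to 0.0512, and over 14 alternatives it ran between 0.000538 and 0.255.

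The WT libraries of the same stage give a further level for these genes, and the kyp libraries serve both comparisons. AT5G49180 was at 602 and 579.6 CPM in WT libraries 7 and 11, AT1G62500 at 129 and 85.5 CPM, and AT5G20750 at 95.2 and 95.01 CPM. AT3G49270 was at 353 and 375 CPM in WT and XTH9 at 291 and 218 CPM. PIP1A was at 33.3 and 40.9 CPM in WT and AT3G48230 at 21.3 and 17.38 CPM. The seed coat was the highest of these 5 libraries for these 7 genes. 4CL8 was highest in WT library 7, at 43.1 CPM. In the globular library AT5G49180 was at 892 CPM, above its 706 CPM in seed coat. The rest of the 7 were lower in the globular library than in seed coat. Whether the maternal genotype of the embryos bears on the calls was not tested.

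**Figure D3:**
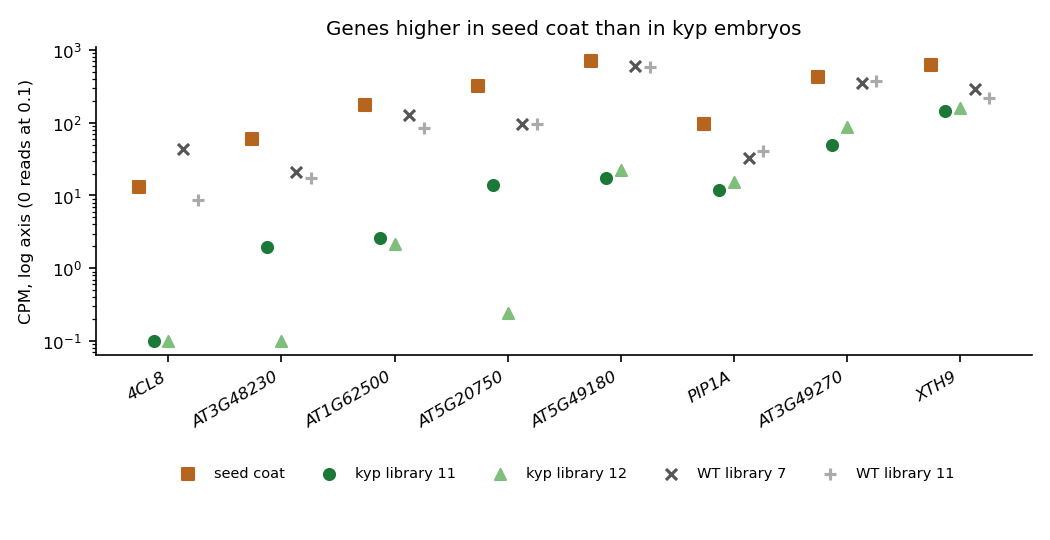
The 8 genes higher in seed coat than in kyp embryos, in CPM on a log axis with 0 reads drawn at 0.1. Squares are the seed coat library, circles and triangles kyp libraries 11 and 12, and crosses and plus signs WT libraries 7 and 11, which lie above the kyp points for each of the 8.

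Of the genes lower in seed coat, 26 had no reads there, so only a lower limit of their fall is known. The 12 of these with the largest fitted fold change are described here. AT5G43240, with a DUF674 domain, had 0 reads in seed coat, against 228 and 584 in kyp, and was at least 109-fold lower (3 seed coat reads as the floor; edgeR adjusted p = 0.000321). AT1G53950, a ubiquitin and ribosomal S27a-like protein, had 0 reads in seed coat, against 83 and 296 in kyp (at least 47.2-fold lower; edgeR adjusted p = 0.00182). AT1G77160, with a DUF506 domain, had 0 against 91 and 271 (at least 46.9-fold lower; edgeR adjusted p = 0.00142). These genes were plainly read in both kyp libraries, so the groups do not overlap.

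Others of this kind have a family name. The peroxidase AT4G31760 had 0 reads in seed coat, against 127 and 127 in kyp (at least 42.7-fold lower). The TRAF-like gene AT1G31400 had 0 against 100 and 123 (at least 35.7-fold lower), and the acid phosphatase AT4G29270 had 0 against 58 and 195 (at least 31.9-fold lower). The edgeR adjusted p was 0.00464, 0.0112 and 0.0124 for these 3. AT5G37140, a nucleoside triphosphate hydrolase, AT4G01260, of the storekeeper-related DNA-binding proteins, and AT4G28410, a tyrosine transaminase, were at least 28.2-fold, 27.6-fold and 26.8-fold lower. Their kyp reads were 50 and 176, 69 and 118, and 52 and 155, each against 0 in seed coat.

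AT5G49440, uncharacterized, had 0 reads in seed coat, against 105 and 191 in kyp (at least 43.1-fold lower; edgeR adjusted p = 0.0232), and was at 1.28 and 10.4 CPM in WT libraries 7 and 11. AT1G69990, a receptor kinase with leucine-rich repeats, had 0 reads in seed coat, against 33 and 262 in kyp (at least 31.8-fold lower; edgeR adjusted p = 0.0419). AT1G64270 (uncertain, with antisense gene AT1G64280), a pseudogene, had 0 against 30 and 203 (at least 25.7-fold lower; edgeR adjusted p = 0.0494). AT1G69990 and AT1G64270 were at 0 in WT library 7 and under 1 CPM in WT library 11. Without kyp library 12 neither passed (edgeR adjusted p = 0.836 and 0.969), and over 14 alternatives their lowest values were 0.000393 and 0.00250.

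A few genes were strongly read in kyp embryos and still read in seed coat. AT3G24250, a glycine-rich protein, was at 47.95 CPM in seed coat, against 4023 and 2302 CPM in kyp, from 107 reads against 6083 and 9475. Its log2 fold change was −6.04 (SE 0.54; adjusted p = 2.78e-05, edgeR). AT5G61412, uncharacterized, was at 136 CPM in seed coat, against 4256 and 2462 CPM in kyp, a log2 fold change of −4.63 (SE 0.53; adjusted p = 0.000321, edgeR). AT5G38170, of the lipid-transfer protein family, had 4 reads in seed coat, against 963 and 985 in kyp, a log2 fold change of −7.89 (SE 0.92; adjusted p = 0.000321, edgeR). In all 3 the seed coat lay far under both kyp libraries, although those differ from each other in CPM. These genes and the other lower genes described from here to the embryo regulators were chosen after their values were seen, except CYP78A5.

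CYP78A5 (KLU), a cytochrome P450 that promotes organ and seed growth from the integuments, stood against the rest of its list. It had 131 reads in seed coat, against 2282 and 4479 in kyp, or 58.7 CPM against 1509 and 1088 CPM. The log2 fold change was −4.47 (SE 0.56; adjusted p = 0.000656, edgeR), and it passed in each alternative (highest adjusted p 0.00356). Its relative CYP78A7 had 0 reads in seed coat, against 32 and 110 in kyp, and was at least 17.81-fold lower (edgeR adjusted p = 0.0436). Without kyp library 12 CYP78A7 did not pass (edgeR adjusted p = 0.117, the highest of 14 alternatives, with 0.00517 the lowest). CYP78A6, of the same family, had 27 reads in seed coat, against 3 and 15 in kyp, a difference that did not pass (edgeR adjusted p = 1).

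Hormone and peptide signalling genes were among those lower in seed coat. CRF1, a cytokinin response factor, had 0 reads in seed coat, against 43 and 103 in kyp (at least 19.9-fold lower; edgeR adjusted p = 0.0318). UGT76C2, which attaches glucose to cytokinins, had 0 against 37 and 46 (at least 13.3-fold lower; edgeR adjusted p = 0.0429). Without the globular library UGT76C2 did not pass (edgeR adjusted p = 0.0830, with a range of 0.00243 to 0.0887 over 14 alternatives). PSK1 (uncertain, overlapping AT1G08905), a precursor of the peptide phytosulfokine, had 1 read in seed coat, against 74 and 185 in kyp. The scaled ratio of its seed coat to kyp reads was 0.00974 (95% Clopper-Pearson interval 0.000246 to 0.0547; edgeR adjusted p = 0.0268). RALFL18, of the RALF peptide family, also had 1 read in seed coat, against 46 and 103 in kyp, a ratio of 0.0169 (0.000426 to 0.0958; edgeR adjusted p = 0.0381).

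Among regulators of transcription outside the list of embryo genes, RKD3, of the RWP-RK family of transcription factors, had 0 reads in seed coat, against 47 and 125 in kyp (at least 22.9-fold lower; edgeR adjusted p = 0.0219). HDG12 (uncertain, with antisense gene AT1G05357), a homeodomain factor of the epidermis, had 5 reads in seed coat, against 149 and 352 in kyp, a log2 fold change of −5.33 (SE 0.76; adjusted p = 0.00213, edgeR). AT1G49475, a B3 factor, had 2 reads in seed coat, against 233 and 532 in kyp, a scaled ratio of 0.00659 (0.000797 to 0.0239; edgeR adjusted p = 0.000656). ULT1, a trithorax-group factor that limits meristem size, was at 80.7 CPM in seed coat, against 522 and 328 CPM in kyp. Its log2 fold change was −2.40 (SE 0.50; adjusted p = 0.0381, edgeR), and without the globular library it missed the threshold (edgeR adjusted p = 0.0524, range 4.57e-06 to 0.0757 over 14 alternatives).

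A minority of the embryo patterning list was called lower in seed coat, though most tested members had a negative fold change. Of 43 members, 38 had a read in the 3 libraries and 36 were tested: 0 were called higher and 4 lower, beside 0.576% lower over all genes tested. The median log2 fold change was −0.92, against −0.03 for all genes tested, with 25 negative and 10 positive. The seed coat lay below both kyp libraries for 19 of the 36 and above both for 9, beside 32.3% and 34.0% of all genes tested. PLT2, an AP2 factor of the root stem cells, had 0 reads in seed coat, against 66 and 90 in kyp (at least 24.4-fold lower; edgeR adjusted p = 0.0128). LEC1, a subunit of the NF-Y complex that maintains embryo identity, had 0 against 43 and 89 (at least 18.6-fold lower; edgeR adjusted p = 0.0259). WOX2, a homeodomain factor of the apical embryo cells, had 2 reads in seed coat, against 89 and 131 in kyp, a scaled ratio of 0.0229 (95% Clopper-Pearson interval 0.00276 to 0.0838; edgeR adjusted p = 0.0199). BBM, an AP2 factor related to PLT2, had 2 reads in seed coat, against 67 and 61 in kyp, a scaled ratio of 0.0394 (0.00472 to 0.145; edgeR adjusted p = 0.0444). For these 4 the seed coat library holds almost no reads, and neither kyp library comes near it. Without kyp library 11 or without the globular library BBM did not pass (edgeR adjusted p = 0.0545 and 0.0693, range 0.000280 to 0.0977 over 14 alternatives). LEC1 did not pass at equal depth (edgeR adjusted p = 0.0582) or with isoforms summed (0.0572), and its lowest value was 0.000745.

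Other members with no seed coat reads missed the threshold. LEC2, a B3 factor that acts with LEC1, had 0 reads in seed coat, against 58 and 31 in kyp (edgeR adjusted p = 0.0573). DRN, an AP2 factor of cotyledon initiation, had 0 against 41 and 34 (edgeR adjusted p = 0.191), and FUS3, another B3 factor, had 0 against 10 and 8 (edgeR adjusted p = 0.722). WOX9, needed for the basal embryo and suspensor, had 6 reads in seed coat, against 24 and 152 in kyp (edgeR adjusted p = 0.497). The seed coat value of all 4 lay below each kyp library, and their unadjusted p values in edgeR, 0.000388, 0.00227, 0.0330 and 0.0123 in that order, were lost on adjustment over 17706 genes. PDF1, a well-read member, lay between kyp libraries that differ, at 423 CPM in seed coat, against 212 and 671 CPM in kyp. Some other well-read members lay close to level in both tissues. MP (uncertain, with an antisense gene), an auxin response factor, was at 256 CPM in seed coat, against 333 and 304 CPM in kyp, and PDF2, an epidermal homeodomain factor, at 366 CPM, against 330.0 and 279 CPM. The receptor kinase ACR4 of the epidermis was at 101 CPM in seed coat, against 112 and 91.1 CPM in kyp.

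Genes of seed coat identity and colour, in contrast, showed no call. None of 19 flavonoid genes passed in either direction, and their median log2 fold change was −0.01, with 9 positive and 10 negative. TT4 (uncertain, with an antisense gene), the chalcone synthase that opens the pathway, was at 2696 CPM in seed coat, against 3142 and 3158 CPM in kyp. LDOX, a dioxygenase near its end, was at 1524 CPM in seed coat, against 1070.0 and 2247 CPM in kyp. The flavonoid genes summed to 9447 CPM in the seed coat library, against 8443 and 11090 CPM in the kyp libraries, a value between those of the kyp libraries. Their median difference was 0.50 against kyp library 11 and −0.22 against kyp library 12 (log2 of CPM plus 0.5). Seed coat markers were also well read in both kyp libraries, and BAN, TT12 and TT10 belong to both lists. The part of seed coat RNA in these kyp levels was not tested.

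Regulators of the seed coat had no call. Of 11, 10 were tested and none passed, with a median log2 fold change of 0.20. The median difference was 0.61 against kyp library 11 and −0.03 against kyp library 12 (log2 of CPM plus 0.5). TT8, a bHLH factor that acts with TT2, was at 130.0 CPM in seed coat, against 55.6 and 111 CPM in kyp, above both. TTG1, the WD40 partner of both, was at 72.2 CPM in seed coat, against 67.5 and 74.3 CPM in kyp, between them. Of 23 genes of the integuments and of the MADS family, 19 were tested and only CYP78A5 passed, with a median of 0.04. Among 5 mucilage and wall genes none passed, with a median of 0.32. SBT1.7, a subtilase needed for mucilage release, was at 432 CPM in seed coat, against 366 and 327 CPM in kyp, and CESA5, a cellulose synthase of the mucilage, at 67.2 CPM, against 54.9 and 105 CPM.

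Transporters of sugar and amino acids had no call, and most had a positive fold change. Of 25, 20 were tested and none passed, 16 were positive, and the median log2 fold change was 0.72. The seed coat lay above both kyp libraries for 13 of 20, beside 34.0% of all genes tested. SUC1, a sucrose-proton symporter, was at 97.7 CPM in seed coat, against 16.5 and 15.8 CPM in kyp, a log2 fold change of 2.59 (SE 0.65; adjusted p = 0.108, edgeR). SUS1, a sucrose synthase, was at 938 CPM in seed coat, against 477 and 540 CPM in kyp (log2 0.88, SE 0.41; adjusted p = 0.839, edgeR). AAP1, an amino acid permease, was at 312 CPM in seed coat, against 192 and 232 CPM in kyp (edgeR adjusted p = 1). In these 3 the seed coat was the highest of the 3 libraries. AAP2, a phloem amino acid permease, had 38 reads in seed coat, against 0 and 1 in kyp (edgeR adjusted p = 0.593). SWEET12, a sucrose exporter, went the other way, at 3.58 CPM in seed coat, against 41.0 and 28.9 CPM in kyp (edgeR adjusted p = 0.190). UMAMIT14, an amino acid exporter, was at 117 CPM in seed coat, against 43.6 and 51.0 CPM in kyp (edgeR adjusted p = 0.583).

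The vascular list had no call in 7 tested of 9, with a median log2 fold change of 0.92. SEOR1, a protein of the sieve elements, had 25 reads in seed coat, against 0 in both kyp libraries, yet did not pass (edgeR adjusted p = 0.783). XCP2, a protease of xylem vessels, had 49 reads in seed coat, against 4 and 15 in kyp (edgeR adjusted p = 1). The companion cell symporter SUC2 was at 34.1 CPM in seed coat, against 19.2 and 16.8 CPM in kyp, and the proton pump AHA3 at 223 CPM, against 217 and 373 CPM. SEOR1, XCP2 and SUC2 had their highest value in the seed coat library, and AHA3 lay between the kyp libraries. Starch genes (18, all tested) had no call and a median of −0.38, with 14 negative, and SBE2.2, a starch branching enzyme, was at 72.6 CPM in seed coat, against 112 and 143 CPM in kyp. DPE2, which breaks down maltose from starch, was at 66.3 CPM in seed coat, against 95.2 and 105 CPM in kyp.

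**Figure D4:**
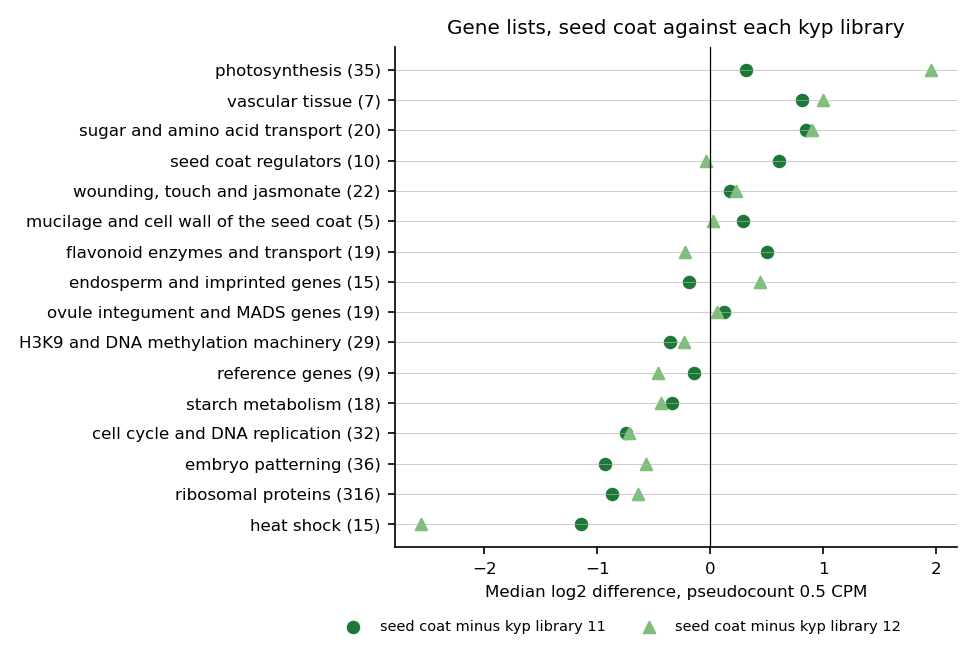
Median log2 difference of each gene list between the seed coat library and kyp library 11 (circles) or kyp library 12 (triangles), from CPM plus 0.5, with the number of tested genes in brackets. Both medians are above 0 for photosynthesis, vascular and transport genes and below 0 for cell cycle, embryo patterning, ribosomal protein and heat shock genes.

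Genes of the cell cycle and of replication had no call, and most had a negative fold change. Of 32 cell cycle and replication genes, all tested, 0 were called, 29 were negative, and the median log2 fold change was −0.87. At an unadjusted p under 0.05 in edgeR, 6 were lower and 0 higher, beside 4.45% and 1.40% of all genes tested. The seed coat lay below both kyp libraries for 24 of the 32, beside 32.3% of all genes tested. TSO2 (uncertain, overlapping another gene), a ribonucleotide reductase subunit, was at 190 CPM in seed coat, against 539.6 and 373 CPM in kyp (log2 −1.26, SE 0.47; adjusted p = 0.562, edgeR). MCM3, of the replicative helicase, was at 92.8 CPM in seed coat, against 216 and 142 CPM in kyp (edgeR adjusted p = 0.949). PCNA1, the sliding clamp, was at 65.4 CPM in seed coat, against 147 and 151 CPM in kyp (edgeR adjusted p = 0.840). KNOLLE (uncertain, with an antisense gene and shared sequence), the syntaxin of cell plate formation, was level, at 144 CPM in seed coat, against 138 and 152 CPM in kyp.

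Ribosomal protein genes, taken by product name, had 1 call, and most had a negative fold change. Of 340, 316 were tested: 0 were called higher and 1 lower, beside 0.576% lower over all genes tested, 265 were negative, and the median log2 fold change was −0.77. The seed coat lay below both kyp libraries for 231 of the 316, beside 32.3% of all genes tested. At an unadjusted p under 0.05, 92 were lower and 0 higher, beside 4.45% and 1.40% of all genes tested. AT3G44010, of the S14p/S29e family, was the call, at 36.7 CPM in seed coat, against 177 and 256 CPM in kyp, a log2 fold change of −2.56 (SE 0.56; adjusted p = 0.0454, edgeR). Without the globular library it did not pass (edgeR adjusted p = 0.0576, range 0.000126 to 0.0959 over 14 alternatives). Genes under other product names, such as the ribosomal S27a-like AT1G53950 called lower above, were not in this class. For genes with histone H in their product name, 0 of 16 tested were called, with a median of −0.20. This match misses genes named Histone superfamily protein, so it does not cover all histone genes. The 9 reference genes had no call and a median of −0.06, but the median of their differences was −0.15 against kyp library 11 and −0.46 against kyp library 12. The seed coat lay below both for 4 of the 9 and above both for 0, beside 32.3% and 34.0% of all genes tested. EF1A (uncertain, with an antisense gene), a translation elongation factor, was at 2032 CPM in seed coat, against 2845 and 2841 CPM in kyp. GAPC1, an enzyme of glycolysis, was at 547 CPM in seed coat, against 868 and 977 CPM in kyp (log2 −0.75, SE 0.43; adjusted p = 1, edgeR). ACT7, an actin, lay between the kyp libraries, at 384 CPM in seed coat, against 363 and 437 CPM in kyp.

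Photosynthesis genes lay above kyp library 12 in the seed coat library, and closer to level with kyp library 11. None of 35 tested (of 36) passed, 33 were positive, and the median log2 fold change was 0.84. The seed coat lay above both kyp libraries for 26 of the 35 and below both for 0, beside 34.0% and 32.3% of all genes tested. Against kyp library 11 the median difference was 0.32 and against kyp library 12 it was 1.96 (log2 of CPM plus 0.5). The list summed to 8027 CPM in the seed coat library, against 6879 and 2589 CPM in kyp libraries 11 and 12, beside 1996 and 2244 CPM in WT libraries 7 and 11. RBCS1A, which codes for the small Rubisco subunit, was at 684 CPM in seed coat, against 817 and 434 CPM in kyp, between the kyp libraries. PSBW, of photosystem II, was at 850.1 CPM in seed coat, against 726 and 228 CPM in kyp. PORB (uncertain, with an antisense gene), which makes chlorophyllide in light, was at 357 CPM in seed coat, against 134 and 44.0 CPM in kyp, a log2 fold change of 2.02 (SE 0.57; adjusted p = 0.213, edgeR). The kyp libraries thus differ from each other here by more than seed coat differs from kyp library 11.

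**Figure D5:**
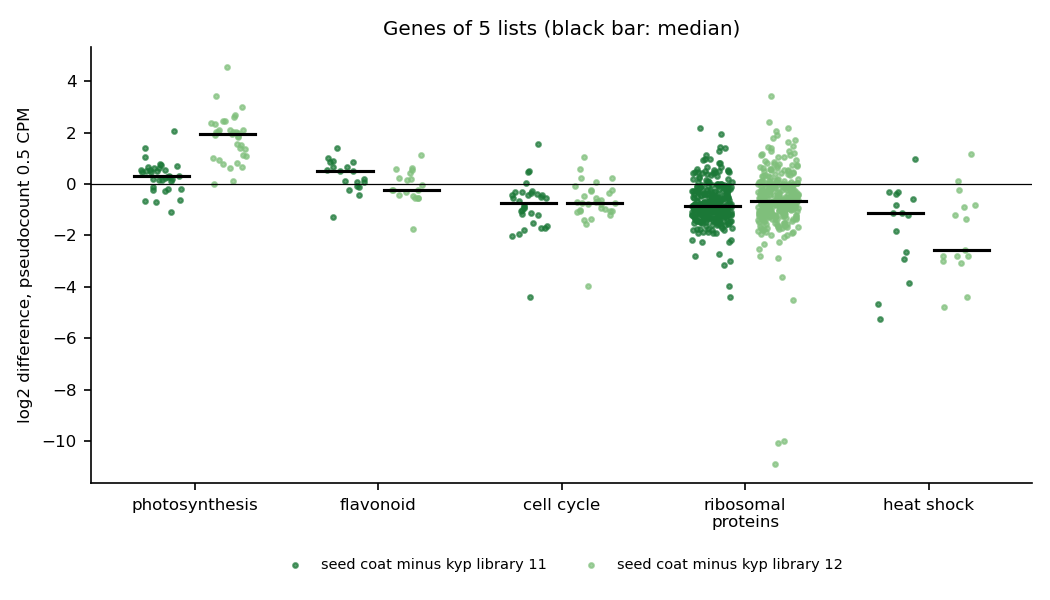
Log2 difference between the seed coat library and each kyp library (CPM plus 0.5) for the tested genes of 5 lists, with 1 point per gene and a black bar at the median. Photosynthesis and flavonoid genes shift between the kyp libraries, whereas cell cycle genes lie mostly below 0 against both. 3 ribosomal loci near −10 against kyp library 12 (AT2G07675, AT2G07696 and AT2G07734) had differences of −1.22, −1.22 and 0.00 against kyp library 11.

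Among heat shock genes 3 were lower in seed coat. Of 18, 15 were tested: 0 were called higher and 3 lower, beside 0.576% lower over all genes tested. Their median log2 fold change was −2.04, against −0.03 for all genes tested, with 14 negative. The median difference was −1.14 against kyp library 11 and −2.56 against kyp library 12 (log2 of CPM plus 0.5). HSP70 (AT3G12580), a stress-induced chaperone, was at 13.4 CPM in seed coat, against 87.3 and 97.4 CPM in kyp, a log2 fold change of −2.78 (SE 0.58; adjusted p = 0.0356, edgeR). HSP17.6A, a small chaperone, had 1 read in seed coat, against 36 and 106 in kyp, a scaled ratio of 0.0178 (95% Clopper-Pearson interval 0.000447 to 0.101; edgeR adjusted p = 0.0281). HSP17.6II, another small chaperone, had 0 against 28 and 41, at least 10.6-fold lower (edgeR adjusted p = 0.0480). These 3 had a far lower level in seed coat than in either kyp library. In WT libraries 7 and 11 HSP70 was at 281 and 191 CPM and HSP17.6A at 107 and 45.1 CPM. Without the globular library HSP17.6II did not pass (edgeR adjusted p = 0.0547, range 0.00370 to 0.139 over 14 alternatives). With isoforms summed none of the 3 passed, and the edgeR adjusted p was 0.0778 for HSP70 and 0.0668 for HSP17.6A, the highest of 14 alternatives, whose lowest were 0.000196 and 0.000195. HSFA2, which switches on such chaperone genes, was at 25.1 CPM in seed coat, against 90.6 and 204 CPM in kyp, and missed the threshold (edgeR adjusted p = 0.0848).

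Wounding, touch and jasmonate genes had no call. Of 26, 22 were tested and none passed, 12 were positive and 10 negative, and the median was 0.06. TCH2 (uncertain, with an antisense gene), a touch-induced calmodulin-like protein, was at 894 CPM in seed coat, against 640.1 and 658 CPM in kyp. MYC2 (uncertain, with an antisense gene and shared sequence), the main factor of jasmonate responses, was at 319 CPM in seed coat, against 261 and 349 CPM in kyp.

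Histone H3 lysine 9 and DNA methylation genes, the pathway of the maternal mutation, had no call among 29 tested. Their median log2 fold change was −0.30, with 9 positive and 20 negative. VIM1, which keeps CG methylation at replication, came nearest, at 30.02 CPM in seed coat, against 197 and 113 CPM in kyp (log2 −2.36, SE 0.57; adjusted p = 0.0887, edgeR). MET1, the CG methyltransferase, was at 72.2 CPM in seed coat, against 105 and 128 CPM in kyp, and CMT3, which reads the mark set by KYP, at 46.2 CPM, against 79.4 and 73.6 CPM. AGO4, an Argonaute that guides DNA methylation by small RNAs, was at 207 CPM in seed coat, against 200.4 and 138 CPM in kyp, and the demethylase DME at 147 CPM, against 128 and 213 CPM. The seed coat was lowest of the 3 libraries for VIM1, MET1 and CMT3, highest for AGO4 and intermediate for DME.

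Genes of the endosperm and imprinted genes had no call among 15 tested of 18, with a median log2 fold change of 0.38. The sign depended on the kyp library, with a median difference of −0.19 against kyp library 11 and 0.44 against kyp library 12 (log2 of CPM plus 0.5). SUC5, an endosperm sucrose transporter, was at 43.9 CPM in seed coat, against 30.4 and 26.2 CPM in kyp, and FWA (uncertain, with an antisense gene), an imprinted homeodomain gene, at 23.3 CPM, against 32.4 and 29.9 CPM. Of 8 pollen and sperm genes, 3 were tested with no call. The LAT52-like gene AT5G45880, a homolog of a tomato pollen protein, was at 30.5 CPM in seed coat, against 25.1 and 12.9 CPM in kyp, beside 0 and 0.841 CPM in WT libraries 7 and 11. VGD1, a pectin methylesterase of pollen tubes, was at 16.1 CPM in seed coat, against 18.5 and 19.9 CPM in kyp. Of 6 seed storage genes only the oleosin gene OLEO1 (uncertain, with an antisense gene) was tested, with 0 reads in seed coat, against 0 and 4 in kyp. CRU3, a storage globulin, had 0 reads in seed coat, against 1 and 0 in kyp. At an unadjusted p under 0.05 in edgeR, 1.40% of all genes tested were higher and 4.45% lower. In these uncalled lists, 6 of 35 photosynthesis genes were higher and 0 lower, and 5 of 20 transport genes were higher and 1 lower. Of 22 wounding genes 2 were higher and 2 lower, and of 29 methylation genes 0 and 3. Of 19 flavonoid genes 0 were higher and 1 lower. Starch (18 tested) and vascular genes (7 tested) each held 1 higher and 0 lower. The lists of seed coat regulators, mucilage, endosperm, pollen, storage and reference genes held 0 in either direction.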

How the data were processed

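RNA amplified with the WT-Ovation Pico system was sequenced on SOLiD, per the labels' protocols. The authors deposited read counts per transcript, per the file headers, beside covered bases and transcript length. Kyp library 12 and WT library 11 hold estimated counts as deposited: 10.8% and 12.7% of their transcripts end in a fraction of a read. These were rounded up. The aligner, counter, genome build and annotation are not given in the sources used here, so no coordinates or sequences are printed. RefSeq TAIR10.1 served for names, products, biotypes, overlaps and shared sequence only (31572 of 32140 loci matched). Whether strand was kept is not stated.

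The 37813 transcripts in all files were used (5 in some files were not), with the isoform of most reads over the 6 libraries standing for its locus. The tests came from edgeR 4.0.16 in R 4.3.3, with TMM, filterByExpr (minimum count 10), the quasi-likelihood F test and Benjamini-Hochberg adjustment at 0.05. All 6 libraries in 4 groups entered the fit, with 2 residual degrees of freedom and a biological coefficient of variation of 0.505. The contrast was seed coat minus kyp. The SE is the size of the log2 fold change over the square root of F. Values after ± are SDs. A fold against 0 reads uses 3 reads per library as a floor, and with 1 to 3 reads a ratio of reads is given with a Clopper-Pearson interval. A gene is uncertain where it overlaps another on either strand or shares 50-base windows over at least 20% of its length. Scripts were tested on simulated data.

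Named genes are KYP, up to 12 per direction with the largest change among calls whose groups do not overlap and whose mean reads reach 20, and per list up to 6 called members or else the 2 with the highest mean CPM. Further genes were chosen after their values were seen. The contrast, lists and rule were chosen with earlier results of these data known. Lists were described by counts and medians, with no test. Alternatives changed the libraries, scaling, filter, test (DESeq2 1.42.0), depth, isoforms and rounding.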

Additional observations from a re-analysis of the deposited data

How the results depend on the processing

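Higher and lower calls numbered 8 and 102. With no filter on low counts they were 34 and 233, with the name prefix as a batch term 23 and 171, and with DESeq2's Wald test 11 and 227. With isoforms summed, lower calls fell to 50, and XTH9, AT5G49440, CRF1, RKD3, PSK1, RALFL18, NUC-L2, HDA3 and AT4G00390 were among the calls lost. PIP1A and RALFL18 were lost at equal depth. Leaving out 1 library in turn gave 7 to 56 higher and 89 to 198 lower, the lone seed coat library being kept and assumed to vary like the rest. Causes were not tested. With the 3 libraries of the contrast alone, 10 and 112 passed, 103 of them shared with the 110, and at equal depth 7 and 77. Of the 110 calls, 54 passed in each of 14 alternatives that tested them. AT5G20750 did not pass DESeq2's Wald test (adjusted p = 0.316, lowest of the alternatives 1.98e-20). Uncalled genes changed sign with the kyp library kept. LDOX had log2 values of −0.56 to 0.52 over the leave-outs, CESA5 −0.64 to 0.30, DME −0.53 to 0.21, RBCS1A −0.24 to 0.66 and AHA3 −0.74 to 0.0526. MYC2 was −0.13 without kyp library 11. With the batch term LDOX was 0.17, DME 0.0331 and VGD1 0.29. Of the list medians under alternatives, 191 stayed within their spread and 41 moved. The photosynthesis median ranged from 0.33 to 1.97 and the flavonoid median from −0.22 to 0.51. Without kyp library 12, no library in the means of the contrast has the prefix. WT library 11, which also has the prefix MC, still enters the spread of that fit. No paired analysis was possible because the seed coat library (number 2) and the kyp libraries (11 and 12) share no number.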

Other observations

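Several gene families by product name, chosen after the calls were seen and so described with no test, held more than 1 of the genes lower in seed coat. Of 16 tested storekeeper-related DNA-binding proteins, 4 were called lower, beside 0.576% over all genes tested, and 15 were negative, with a median log2 fold change of −1.26. AT1G11510 of this family had 4 reads in seed coat, against 135 and 464 in kyp libraries 11 and 12 (log2 −5.78, SE 0.85; edgeR adjusted p = 0.00245). AT4G00390 had 48 reads in seed coat, against 218 and 673 in kyp (log2 −2.84, SE 0.56; edgeR adjusted p = 0.0268). Other members lay level, such as AT5G28040 at 168 CPM in seed coat, against 159 and 199.7 CPM in kyp. Of 8 tested genes with a DUF674 domain, 3 were called lower, beside the same 0.576%, and AT3G09110 had 4 reads in seed coat, against 106 and 376 in kyp (edgeR adjusted p = 0.00234). A further member, AT3G09140, had its highest value in seed coat, at 27.8 CPM, against 11.2 and 7.77 CPM in kyp (edgeR adjusted p = 0.937).

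Proteins of the nucleolus and of chromatin formed another group. Of 12 tested genes for rRNA processing, 2 were called lower, beside 0.576% over all genes tested, and 11 were negative (median −1.50). NUC-L2, a nucleolin, had 13 reads in seed coat, against 137 and 196 in kyp (log2 −3.55, SE 0.75; edgeR adjusted p = 0.0381). AT5G27120, related to NOP56, had 43 reads in seed coat, against 272 and 601 in kyp (log2 −3.07, SE 0.56; edgeR adjusted p = 0.0150). NOP56 itself (uncertain, with an antisense gene) was at 199 CPM in seed coat, against 895 and 788 CPM in kyp, just outside the threshold (edgeR adjusted p = 0.0510). The plant-specific HD2 histone deacetylases, which act in the nucleolus, were taken as 4 loci, not by product name, after the calls were seen. All 4 were negative, beside 9129 of 17706 genes tested, and 2 were called lower, beside 0.576%. HDT4 had 28 reads in seed coat, against 229 and 348 in kyp (edgeR adjusted p = 0.0219), and HDA3 (uncertain, with an antisense gene) had 28 against 169 and 312 (edgeR adjusted p = 0.0356).

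Among 27 tested genes with a small heat shock or HSP20-like product name, 6 were called lower, beside 0.576% over all genes tested. Of these 6, 4 were outside the heat shock list. The 27 were matched by name only and need not all be small heat shock proteins. The median of the 27 was −0.36, with 16 negative and 11 positive. AT1G54050 had 24 reads in seed coat, against 284 and 978 in kyp (log2 −4.30, SE 0.61; edgeR adjusted p = 0.00182), and AT5G51440 had 6 against 187 and 313 (log2 −5.18, SE 0.75; edgeR adjusted p = 0.00217). Of 19 tested aquaporins, 1 (PIP1A) was called higher, beside 0.0452% over all genes tested, 12 were positive and 7 negative. PIP1B was at 555 CPM in seed coat, against 165 and 186 CPM in kyp (log2 1.66, SE 0.43; edgeR adjusted p = 0.129). Pseudogene and transposon loci had a median of −2.46 over 147 tested, or −1.47 with the 49 genes without reads in a group set at their bound. Of the 147, 1 was called higher and 3 lower, beside 0.0452% and 0.576% over all genes tested. All loci of the class, tested or not, summed to 2151 CPM in seed coat, against 2129 and 3141 CPM in kyp libraries 11 and 12.

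The cysteine protease gene AT3G43960 was at 28.7 CPM in seed coat, against 317 and 537 CPM in kyp (log2 −3.90, SE 0.65; edgeR adjusted p = 0.00890), and at 14.5 and 29.7 CPM in WT libraries 7 and 11. AT2G20460, uncharacterized, had 1 read in seed coat, against 52 and 194 in kyp, and 1 read in each WT library. Its call was lost without kyp library 11 (edgeR adjusted p = 0.0547) and without kyp library 12 (0.536), with 0.00514 the lowest of 14 alternatives.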
